A study of Mus musculus with 12 samples.

Results

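The Ms4a genes described here are Ms4a4a, Ms4a4b, Ms4a4c, Ms4a6b, Ms4a6c, Ms4a6d and Ms4a7, 7 of the 54532 genes counted in RNA from mouse striatum. They were picked by gene symbol, matched to the Ensembl identifiers of the count tables, with the results of these same libraries in view. Their levels and calls are therefore given as a description, with no p-value for any of the 7. The study's question was the effect on brain gene expression, after an ischemic stroke, of SN-011, a compound that blocks the innate immune adaptor STING. Its 12 libraries form 4 groups of 3, all from striatum of C57BL/6J mice. Sham mice were given PBS, and vehicle mice underwent transient middle cerebral artery occlusion (tMCAO, in which the artery that feeds the striatum is blocked and then reopened) and were given PBS. The SN-011 group and the 3d SN-011 group both underwent tMCAO and received SN-011. The titles of the last group carry the prefix 3d, which the labels do not explain, and no sham or vehicle library carries it, so an effect of the drug and of whatever 3d stands for cannot be told apart. The labels give no dose, age or sex, and do not state if 1 animal or several gave the 3 libraries of each group.

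MS4A proteins are small membrane proteins that cross the membrane 4 times, with both ends in the cytoplasm. They act mostly as partners of other receptors, and the best known members are the B cell antigen CD20 (Ms4a1) and the beta chain of the mast cell IgE receptor (Ms4a2), which signals through an immunoreceptor tyrosine-based activation motif (ITAM). Most of the other family members are expressed by macrophages and their relatives. In people, the locus that holds MS4A4A and MS4A6A is linked to the risk of Alzheimer's disease and to the amount of soluble TREM2, a microglial receptor that also signals through an ITAM adaptor.

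All 7 genes are protein-coding and sit in 1 stretch of chromosome 19 (GRCm38, GENCODE M21). In order along the chromosome they are Ms4a7 (chr19:11321039-11336146, minus strand), Ms4a4a (chr19:11375523-11392790, plus), Ms4a4c (chr19:11404770-11427246, plus), Ms4a4b (chr19:11443553-11467055, plus), Ms4a6c (chr19:11469366-11482192, plus), Ms4a6b (chr19:11516512-11531256, plus) and Ms4a6d (chr19:11586604-11604849, minus). RefSeq promoter windows, the 250 bases before each annotated start on GRCm38.p6, were matched for 6 of the 7 genes and gave 7 windows, because Ms4a7 has more than 1 start. Ms4a6d had no match. The RefSeq start lay 2891 bases inside the GENCODE gene for Ms4a4c, 2047 bases for Ms4a6b and 1451 bases for 1 window of Ms4a7. Those windows therefore lie within the gene as GENCODE places it. Of the 21 pairs of windows, 19 were 34.4% to 38.5% identical at their best ungapped alignment, with no shared run over 9 bases. The other pairs stood apart. The windows of Ms4a4b and Ms4a4c were 57.5% identical over 247 bases, and those of Ms4a6b and Ms4a6c were 61.6% identical over 177 bases.

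These 4 windows are printed because they show that likeness between neighbouring genes, whose RNA levels did not follow each other equally closely (below). Each is on the plus strand, 5′ to 3′, without bases that GENCODE places in an exon. Capitals mark runs of at least 10 bases that the gene shares with its partner, Ms4a4b with Ms4a4c and Ms4a6b with Ms4a6c. The windows lie at chr19:11443308-11443552 for Ms4a4b, chr19:11407411-11407660 for Ms4a4c, chr19:11518309-11518452 for Ms4a6b and chr19:11469118-11469365 for Ms4a6c.
Ms4a4b: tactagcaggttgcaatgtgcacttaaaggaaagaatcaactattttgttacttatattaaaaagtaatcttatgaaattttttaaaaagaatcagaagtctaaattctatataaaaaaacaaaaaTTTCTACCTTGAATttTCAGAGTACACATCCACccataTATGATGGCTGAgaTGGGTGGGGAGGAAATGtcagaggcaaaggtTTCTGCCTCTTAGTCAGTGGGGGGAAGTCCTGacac
Ms4a4c: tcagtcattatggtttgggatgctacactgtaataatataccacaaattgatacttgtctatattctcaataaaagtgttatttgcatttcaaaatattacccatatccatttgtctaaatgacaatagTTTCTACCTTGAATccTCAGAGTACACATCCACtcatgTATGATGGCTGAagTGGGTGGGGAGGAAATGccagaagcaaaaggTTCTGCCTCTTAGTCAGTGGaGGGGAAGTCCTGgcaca
Ms4a6b: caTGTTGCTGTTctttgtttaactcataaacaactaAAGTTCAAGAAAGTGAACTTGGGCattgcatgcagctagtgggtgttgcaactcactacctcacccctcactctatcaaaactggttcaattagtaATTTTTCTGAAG
Ms4a6c: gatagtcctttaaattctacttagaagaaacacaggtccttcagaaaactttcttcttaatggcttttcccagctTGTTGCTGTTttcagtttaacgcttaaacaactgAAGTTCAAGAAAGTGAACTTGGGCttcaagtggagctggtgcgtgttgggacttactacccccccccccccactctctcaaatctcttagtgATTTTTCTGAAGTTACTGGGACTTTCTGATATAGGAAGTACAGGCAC
In the first pair the runs lie in the part of the window nearest the start and cover 92 of the 250 bases of each gene. In the second pair they cover 82 of 250 bases, of which 36 in Ms4a6b fall in an annotated exon and are not printed. The longest shared run has 48 bases in the second pair and 20 bases in the first.

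Short motifs of myeloid transcription factors were searched on both strands of the same windows. The core of the site of PU.1, the master factor of macrophages, was searched as GAGGAA and occurred in 2 of the 7 windows, those of Ms4a4b and Ms4a4c, against 23.25% of 32851 promoter windows. It falls in 1 of the capital runs, 64 to 59 bases before the start of Ms4a4b and 61 to 56 bases before that of Ms4a4c. AP-1 was searched as TGANTCA, which allows any middle base. It matched in 1 window, of Ms4a7, with the letters TGATTCA, against 6.75% of all windows. The interferon-stimulated response element (2.98% of all windows), the ETS-IRF composite element (2.30%) and the C/EBP motif (TTGCNNAA, 9.56%) were in none of the 7 windows. Such matches describe letters only and do not show binding.

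Depth was even, from 15806076 to 18622053 counted reads per library, and the mitochondrial share ran from 3.77% to 6.82%. The first principal component held 70.6% of the variance of log2 expression. Markers of striatal projection neurons, the main neurons of this tissue, had a summed level of 9058 to 9714 CPM (reads per 1000000 counted) in sham and 9254 to 9669 in vehicle, so the tissue label was borne out there. The same sum was 5341 to 9554 CPM in the SN-011 group and 373 to 2261 CPM in the 3d SN-011 group. Choroid plexus genes, which mark tissue next to the striatum, varied from 108 to 2539 CPM within sham alone and from 36.5 to 787 CPM in the 3d SN-011 group. The part of either difference in the results on Ms4a genes was not tested.

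All of the Ms4a genes were near the floor of detection in sham and vehicle striatum and were highest in the 3d SN-011 group. Summed over the 7 genes, sham libraries held 53, 60 and 66 reads and vehicle libraries 47, 59 and 51 reads. The SN-011 libraries held 161, 115 and 403 reads, and the 3d SN-011 libraries 1708, 1192 and 2651 reads. As a level scaled by the trimmed mean of M-values (TMM), that is 3.61 ± 0.39 CPM in sham, 3.35 ± 0.46 in vehicle, 12.7 ± 8.22 in SN-011 and 96.4 ± 42.6 in 3d SN-011 (SD, n = 3 each). The 4 groups thus lay in a low pair, an intermediate group led by its replicate 3, and a high group. All 7 genes passed the filter on low counts. Ms4a4a, Ms4a4b and Ms4a4c did not pass it without the 3d SN-011 libraries, and the other 4 did.

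**Figure D1:**
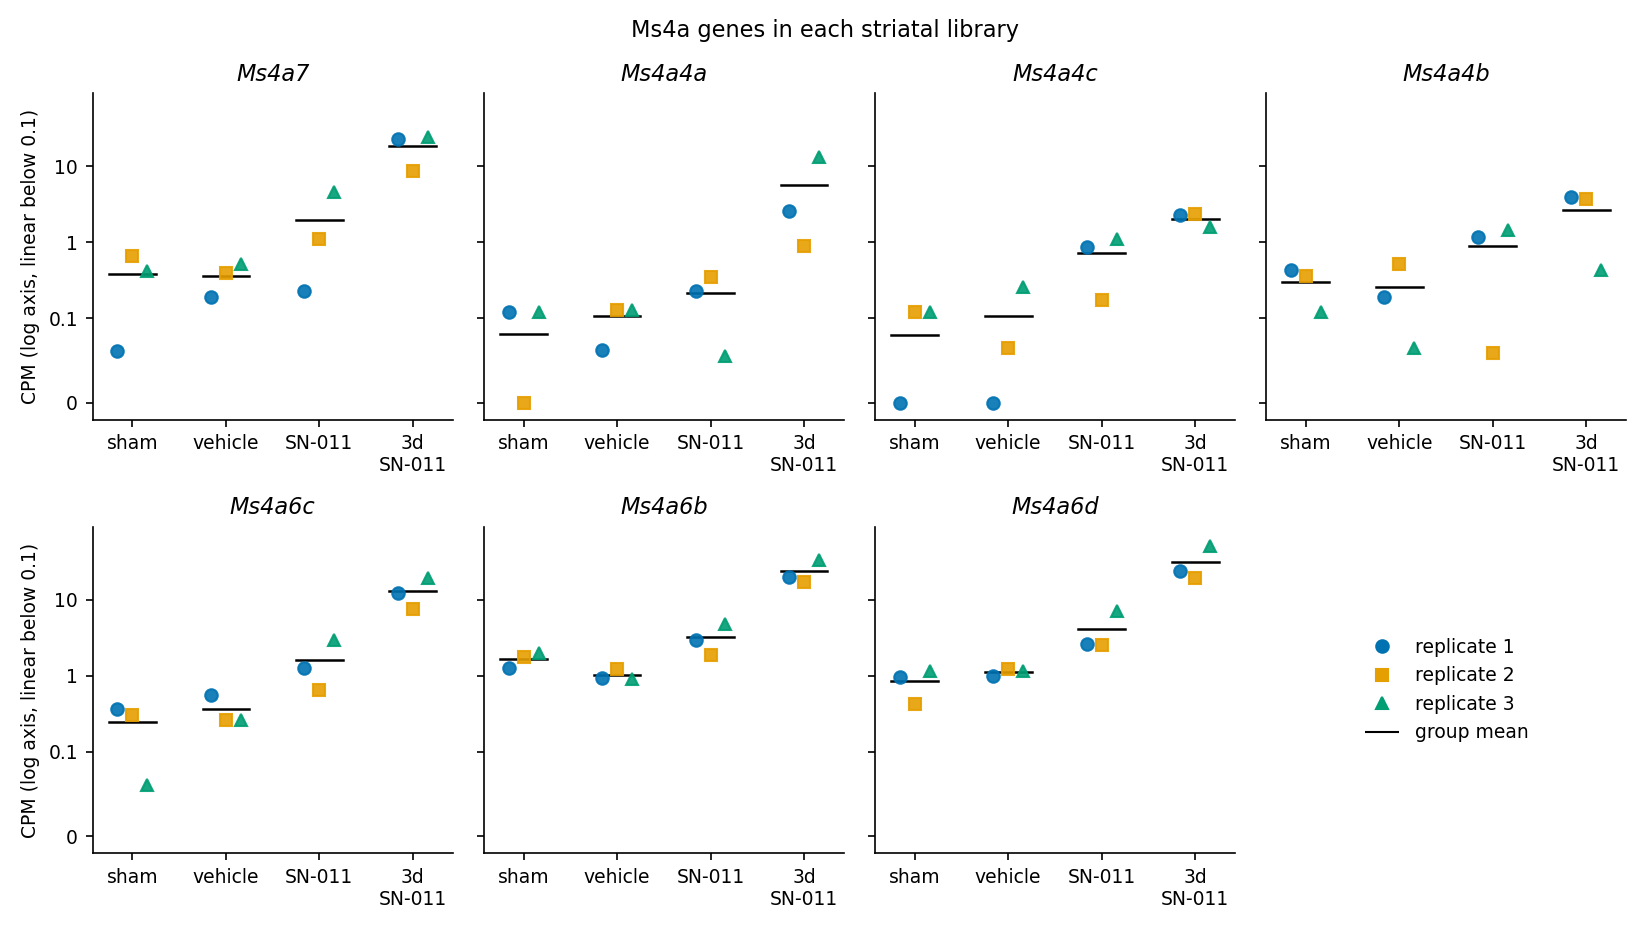
CPM of each Ms4a gene (vertical axis, logarithmic above 0.1 and linear below) in the 12 striatal libraries, by group. Points are libraries, shaped and coloured by replicate number, and lines are group means. Ms4a6d reaches 50.5 CPM in replicate 3 of the 3d SN-011 group and stays at or below 1.24 CPM in sham and vehicle, while Ms4a4b in that same replicate, at 0.431 CPM, lies among the vehicle values.

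Ms4a6d, Ms4a6b and Ms4a6c form the Ms4a6 branch of the cluster. Ms4a6d is a macrophage protein reported to work with the receptor VSIG4 in restraining the inflammasome, and it was the most abundant of the 7 per kilobase of exon. Its read counts were 16, 7 and 19 in sham, 16, 19 and 18 in vehicle, 45, 43 and 131 in SN-011, and 471, 386 and 937 in 3d SN-011. The 3d SN-011 libraries lay above all others, and the SN-011 libraries lay above all sham and vehicle libraries, with SN-011 replicate 3 well above its group. The group levels were 0.848 ± 0.378 CPM in sham, 1.13 ± 0.12 in vehicle, 4.10 ± 2.67 in SN-011 and 31.2 ± 16.9 in 3d SN-011 (SD, n = 3 each).

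Ms4a6b, found on T cells as well as on myeloid cells, had counts of 21, 29 and 33 in sham, 15, 19 and 14 in vehicle, 51, 32 and 88 in SN-011, and 385, 343 and 623 in 3d SN-011. It was the member with the most reads over sham and vehicle together. Its levels were 1.68 ± 0.37 CPM in sham, 1.02 ± 0.18 in vehicle, 3.21 ± 1.49 in SN-011 and 23.4 ± 8.90 in 3d SN-011 (SD, n = 3 each). Vehicle libraries all lay below sham libraries, and SN-011 libraries lay above vehicle but overlapped sham.

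Ms4a6c, a close relative of Ms4a6b, had counts of 6, 5 and 1 in sham, 9, 4 and 4 in vehicle, 22, 11 and 53 in SN-011, and 239, 150 and 354 in 3d SN-011. Its levels were 0.243 ± 0.160 CPM in sham, 0.360 ± 0.175 in vehicle, 1.61 ± 1.17 in SN-011 and 12.9 ± 5.86 in 3d SN-011 (SD, n = 3 each). As for Ms4a6d, neither SN-011 group overlapped sham or vehicle. Ms4a6c overlaps an antisense gene, BE692007, with which it shares 44.2% of its 150-base transcript windows. BE692007 itself was counted at 0 to 4 reads in sham and vehicle libraries and at 97, 72 and 124 reads in the 3d SN-011 libraries. Because no source used here says whether counting used strand, reads of these genes cannot be told apart. None of the other 6 genes shared a 150-base window with another gene. In 50-base windows the shared part reached 8.19% in Ms4a4c, nearly all of it with Ms4a4b, and was 3.57% or less in the other 5.

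Ms4a7 and Ms4a4a are the members best known from particular macrophages. Ms4a7 marks border macrophages of the brain and macrophages that enter it from the blood, and resting microglia have little of it. Its counts were 1, 11 and 7 in sham, 3, 6 and 8 in vehicle, 4, 19 and 84 in SN-011, and 443, 174 and 454 in 3d SN-011. The SN-011 group had the widest spread of the 4 as a ratio, with replicate 1 among the vehicle values and replicate 3 at 19.9 times replicate 1 in CPM. Its levels were 0.384 ± 0.305 CPM in sham, 0.364 ± 0.165 in vehicle, 1.98 ± 2.31 in SN-011 and 18.6 ± 8.68 in 3d SN-011 (SD, n = 3 each).

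Ms4a4a, a marker of alternatively activated macrophages that associates with the beta-glucan receptor dectin-1, had the fewest reads of the 7 over the sham, vehicle and SN-011 libraries together. Its counts were 2, 0 and 2 in sham, 1, 2 and 2 in vehicle, 4, 6 and 1 in SN-011, and 50, 18 and 246 in 3d SN-011. SN-011 libraries overlapped sham and vehicle, and no replicate 3 effect like that of Ms4a7 appeared there. In the 3d SN-011 group a single library, replicate 3, held most of the reads, at 13.2 CPM against 2.56 and 0.890. The group means were 0.0808 ± 0.070 CPM in sham, 0.107 ± 0.039 in vehicle, 0.212 ± 0.149 in SN-011 and 5.57 ± 6.71 in 3d SN-011 (SD, n = 3 each).

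Ms4a4b and Ms4a4c are the neighbours with alike promoter windows. Ms4a4b is known mainly from T cells, where it restrains proliferation, so the name "myeloid" does not cover it well. Its counts were 7, 6 and 2 in sham, 3, 8 and 1 in vehicle, 20, 1 and 26 in SN-011, and 76, 74 and 8 in 3d SN-011. Here 3d SN-011 replicate 3 was the low library, within the range of vehicle, and SN-011 replicate 2 had a single read. The levels were 0.303 ± 0.161 CPM in sham, 0.257 ± 0.236 in vehicle, 0.880 ± 0.724 in SN-011 and 2.66 ± 1.93 in 3d SN-011 (SD, n = 3 each). Ms4a4c had counts of 0, 2 and 2 in sham, 0, 1 and 4 in vehicle, 15, 3 and 20 in SN-011, and 44, 47 and 29 in 3d SN-011. It was the most even member within the 3d SN-011 group, at 2.05 ± 0.42 CPM (SD, n = 3), against 0.713 ± 0.479 in SN-011, 0.107 ± 0.134 in vehicle and 0.0807 ± 0.070 in sham.

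Stroke with PBS alone was not separated from sham by the Ms4a genes. Against sham, vehicle log2 fold changes ran from -0.71 (SE 0.41) for Ms4a6b to 0.56 (SE 0.83) for Ms4a6c, each on the fitted scale of edgeR's quasi-likelihood model. None of the 7 was called at an adjusted p under 0.05, none had an unadjusted p under 0.05, and none was called by DESeq2 or by limma voom. Over all 18537 genes tested, edgeR called 0.0% in this comparison, and 2.52% had an unadjusted p under 0.05. Ms4a6b was the only member whose vehicle libraries did not overlap sham, on the lower side, where 6.29% of all genes had this pattern. Single libraries decided several of the other values. Ms4a7 moved from -0.079 to 0.57 without sham replicate 2, Ms4a4c from 0.37 to -1.17 without vehicle replicate 3 (-0.77 in limma voom) and Ms4a4b from -0.23 to -1.21 without vehicle replicate 2.

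With SN-011, all 7 genes had higher mean levels than in vehicle, but edgeR called none of them. The log2 fold changes were 2.67 (SE 0.87) for Ms4a4c, 2.44 (SE 0.93) for Ms4a7, 2.14 (SE 0.65) for Ms4a6c, 1.86 (SE 0.51) for Ms4a6d, 1.76 (SE 1.04) for Ms4a4b, 1.65 (SE 0.39) for Ms4a6b and 0.93 (SE 1.40) for Ms4a4a. Their median was 1.86, beside -0.0077 for all genes. Only 0.0108% of all genes were called higher here, while 5 members and 11.1% of all genes had an unadjusted p under 0.05. DESeq2 called 3 members (Ms4a6b, Ms4a6c and Ms4a6d), beside 2.33% of all genes called higher, and limma voom with quality weights 2 (Ms4a4c and Ms4a6b), beside 4.21%. Limma voom put Ms4a7 at 0.63, Ms4a6c at 1.46 and Ms4a4c at 3.59. The Ms4a6 genes were also the 3 members whose SN-011 libraries all lay above all vehicle libraries, a pattern held by 9.01% of all genes.

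The size of the SN-011 differences leaned on single libraries. In SN-011 replicate 3, 6 of the 7 members were highest, all but Ms4a4a, beside 39.1% of all genes. Without it the log2 difference from vehicle was 0.87 for Ms4a7, 1.39 for Ms4a6c, 1.17 for Ms4a6d and 1.23 for Ms4a6b. Control libraries mattered for the rarest genes, since Ms4a4c stood at 4.21 without vehicle replicate 3 and Ms4a4b at 2.74 without vehicle replicate 2. Leaving out SN-011 replicate 2, the lowest library for 5 members, gave 2 calls, of Ms4a6b and Ms4a6c, beside 2.76% of all genes called higher in that fit. The same SN-011 replicate 3 was highest of its group for 12 of 12 pan-macrophage genes and 10 of 10 homeostatic microglia genes, and lowest for 10 of 10 markers of striatal projection neurons. The part of these shifts in the Ms4a values was not tested.

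Against sham, which is a separate baseline for the same SN-011 libraries, the differences were 3.04 (SE 0.90) for Ms4a4c, 2.70 (SE 0.68) for Ms4a6c, 2.36 (SE 0.91) for Ms4a7, 2.27 (SE 0.53) for Ms4a6d, 1.52 (SE 1.00) for Ms4a4b, 1.30 (SE 1.46) for Ms4a4a and 0.94 (SE 0.37) for Ms4a6b on the log2 scale. edgeR called none of these members, and called 0.113% of all genes higher. DESeq2 and limma voom each called 3, namely Ms4a4c, Ms4a6c and Ms4a6d, beside 3.27% and 6.18% of all genes called higher. Limma voom put Ms4a7 at 0.38. The same 3 did not overlap sham, as did 12.8% of all genes in that direction, and the same 3 were called by edgeR without SN-011 replicate 2, beside 3.61% of all genes called higher in that fit. Without SN-011 replicate 3 the values were 0.79 for Ms4a7, 1.95 for Ms4a6c and 1.58 for Ms4a6d, and without sham replicate 2 Ms4a7 stood at 3.01. With the replicate number as a block edgeR called 1 member, Ms4a6d, beside 0.151% of all genes called higher.

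**Figure D2:**
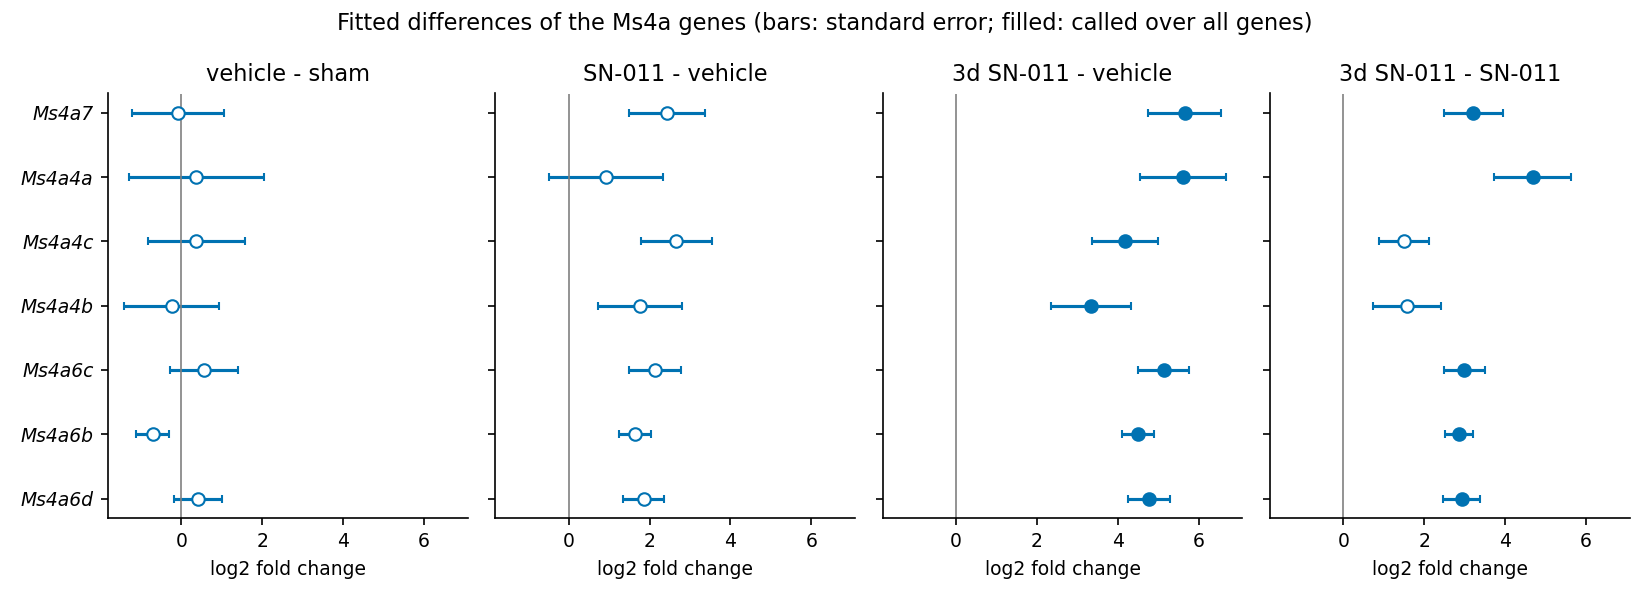
Fitted log2 fold changes of the Ms4a genes (horizontal axis) in 4 comparisons, with bars for the standard error and filled points for genes called by edgeR over all genes tested, with 3 libraries in each group. In 3d SN-011 against vehicle, all 7 points are filled and lie between 3.34 and 5.65, while in SN-011 against vehicle all 7 are open and lie between 0.93 and 2.67. Ms4a4a, Ms4a4b and Ms4a4c passed the filter on low counts only through the 3d SN-011 libraries.

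In the 3d SN-011 group all 7 genes were called higher than in vehicle, in a comparison in which 28.9% of all genes were called higher. Ms4a4a, Ms4a4b and Ms4a4c passed the filter on low counts only through the 3d SN-011 libraries, which favoured such calls for them. Only Ms4a6b, Ms4a6c, Ms4a6d and Ms4a7 can therefore be set beside such shares. The log2 fold changes were 5.65 (SE 0.89) for Ms4a7, 5.61 (SE 1.06) for Ms4a4a, 5.13 (SE 0.62) for Ms4a6c, 4.78 (SE 0.52) for Ms4a6d, 4.50 (SE 0.39) for Ms4a6b, 4.17 (SE 0.81) for Ms4a4c and 3.34 (SE 0.98) for Ms4a4b. The median of the 7 was 4.78, beside 0.0093 for all genes. Libraries did not overlap for 6 of them, all but Ms4a4b, beside 29.5% of all genes in that direction. Single libraries moved 3 of these values over 1.5-fold, and limma voom put Ms4a4a at 4.27 and Ms4a4c at 5.23. Ms4a4a stood at 3.92 without 3d SN-011 replicate 3, Ms4a4c at 5.72 without vehicle replicate 3 and Ms4a4b at 4.32 without vehicle replicate 2.

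Measured from sham instead, which shares the 3d SN-011 libraries with the comparison above, the log2 differences were 5.98 (SE 1.10) for Ms4a4a, 5.69 (SE 0.65) for Ms4a6c, 5.57 (SE 0.88) for Ms4a7, 5.19 (SE 0.54) for Ms4a6d, 4.55 (SE 0.84) for Ms4a4c, 3.80 (SE 0.37) for Ms4a6b and 3.11 (SE 0.95) for Ms4a4b. All 7 were called, beside 29.8% of all genes called higher, and none overlapped sham, beside 31.8% of all genes. As above, the filter favoured this outcome for Ms4a4a, Ms4a4b and Ms4a4c, which cannot be set beside these shares. Ms4a4b lost its call without sham replicate 3. Ms4a7 stood at 6.22 without sham replicate 2 and Ms4a4a at 4.30 without 3d SN-011 replicate 3 and at 4.78 in limma voom.

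The SN-011 groups also differed from each other. Relative to SN-011, the 3d SN-011 group was higher by 4.68 (SE 0.95) for Ms4a4a, 3.21 (SE 0.73) for Ms4a7, 2.99 (SE 0.51) for Ms4a6c, 2.92 (SE 0.45) for Ms4a6d and 2.86 (SE 0.35) for Ms4a6b on the log2 scale, and edgeR called these 5, beside 23.6% of all genes called higher. Ms4a4b (1.58, SE 0.84) and Ms4a4c (1.51, SE 0.62) were not called, although the libraries of Ms4a4c did not overlap. Here 6 genes did not overlap, all but Ms4a4b, beside 24.6% of all genes. Ms4a4a, Ms4a4b and Ms4a4c, kept by the filter only through the 3d SN-011 libraries, cannot be set beside these shares. Without SN-011 replicate 3 Ms4a4c was called as well, beside 24.5% of all genes called higher in that fit, and Ms4a7 stood at 4.78, Ms4a6c at 3.74 and Ms4a6d at 3.60. Without 3d SN-011 replicate 3 Ms4a4b was called as well, beside 4631 of 18537 genes called higher, and Ms4a4a stood at 2.99. Limma voom put Ms4a7 at 5.08 and Ms4a4a at 3.16, and the replicate block put Ms4a4a at 4.03.

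Per kilobase of exon, the order of the genes within a library changed less than their level. Ms4a6d ranked first in all vehicle, SN-011 and 3d SN-011 libraries and first or second in sham. It made up 23.4% to 49.0% of the length-scaled sum of the 7 genes over the 12 libraries, and 40.7% to 47.5% in the 3d SN-011 group. In that group its level of 18.0 ± 9.72 CPM per kilobase was followed by Ms4a4a at 6.66 ± 8.02, Ms4a6c at 6.29 ± 2.86, Ms4a6b at 5.22 ± 1.98, Ms4a7 at 4.17 ± 1.95, Ms4a4c at 1.17 ± 0.24 and Ms4a4b at 0.303 ± 0.220 (SD, n = 3 each). The ranges of neighbours from Ms4a4a to Ms4a7 overlapped, so their order is not resolved, whereas Ms4a4b ranked last in all 3 libraries. The order leans on the lengths used, which merge all annotated exons of a gene, from 0.836 kb for Ms4a4a to 8.78 kb for Ms4a4b. In CPM without length, Ms4a4b lay above Ms4a4c in 3d SN-011 replicates 1 and 2 (3.89 and 3.66 against 2.25 and 2.32). The place of Ms4a4a rests on 1 library, since its share of the length-scaled sum was 23.3% in replicate 3 and 8.97% and 4.60% in replicates 1 and 2. Ms4a6b made up 23.1% to 37.5% of the sum in sham against 14.2% to 18.9% in vehicle. It ranked first only in sham replicate 2, where Ms4a6d had 7 reads.

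Genes common to all macrophages moved with the Ms4a genes. A list of 12 (among them Csf1r, the receptor for the survival factor of microglia and macrophages) summed to 272 to 301 CPM in sham libraries and 269 to 317 CPM in vehicle libraries. The sum was 451 to 1770 CPM with SN-011 and reached 3892 to 5639 CPM in the 3d SN-011 group. In 3d SN-011 against vehicle all 12 were called higher by edgeR, beside 28.9% of all genes, with a median log2 fold change of 3.95. Lyz2, the lysozyme of myeloid cells, differed by 6.25, and Adgre1, which encodes the macrophage antigen F4/80, by 4.31. In such bulk samples, more cells of a type and more RNA per cell cannot be told apart.

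Set per 1000 CPM of those 12 genes, 6 of the 7 Ms4a genes overlapped between 3d SN-011 and vehicle. Ms4a6d stood at 3.22, 1.56 and 4.06 in sham, 3.72, 4.48 and 3.66 in vehicle, 4.61, 5.58 and 4.06 in SN-011, and 4.27, 4.90 and 11.4 in 3d SN-011. Only replicate 3 of the last group was far from the others. Ms4a6b, at 3.49, 4.36 and 7.60 in 3d SN-011, overlapped sham at 4.23, 6.46 and 7.05. Ms4a4c, at 0.399, 0.597 and 0.354 in 3d SN-011, lay within the range of vehicle, which ran from 0 to 0.812. Ms4a7 was the only member whose 3d SN-011 libraries all lay above vehicle on this scale, with 4.02, 2.21 and 5.54 in 3d SN-011 against 0.698, 1.41 and 1.62 in vehicle, although sham replicate 2, at 2.45, and SN-011 replicates 2 and 3, at 2.47 and 2.60, lay above the lowest of them. Ms4a4a was within the range of the other groups in 3d SN-011 replicates 1 and 2 (0.454 and 0.229) and stood at 3.00 in replicate 3. These ratios carry no test, since both parts come from the same libraries. They also depend on the genes summed, which differed unequally between 3d SN-011 and vehicle. Their log2 fold changes ran from 2.85 for Csf1r to 6.25 for Lyz2. No other set of genes was tried for this scale.

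**Figure D3:**
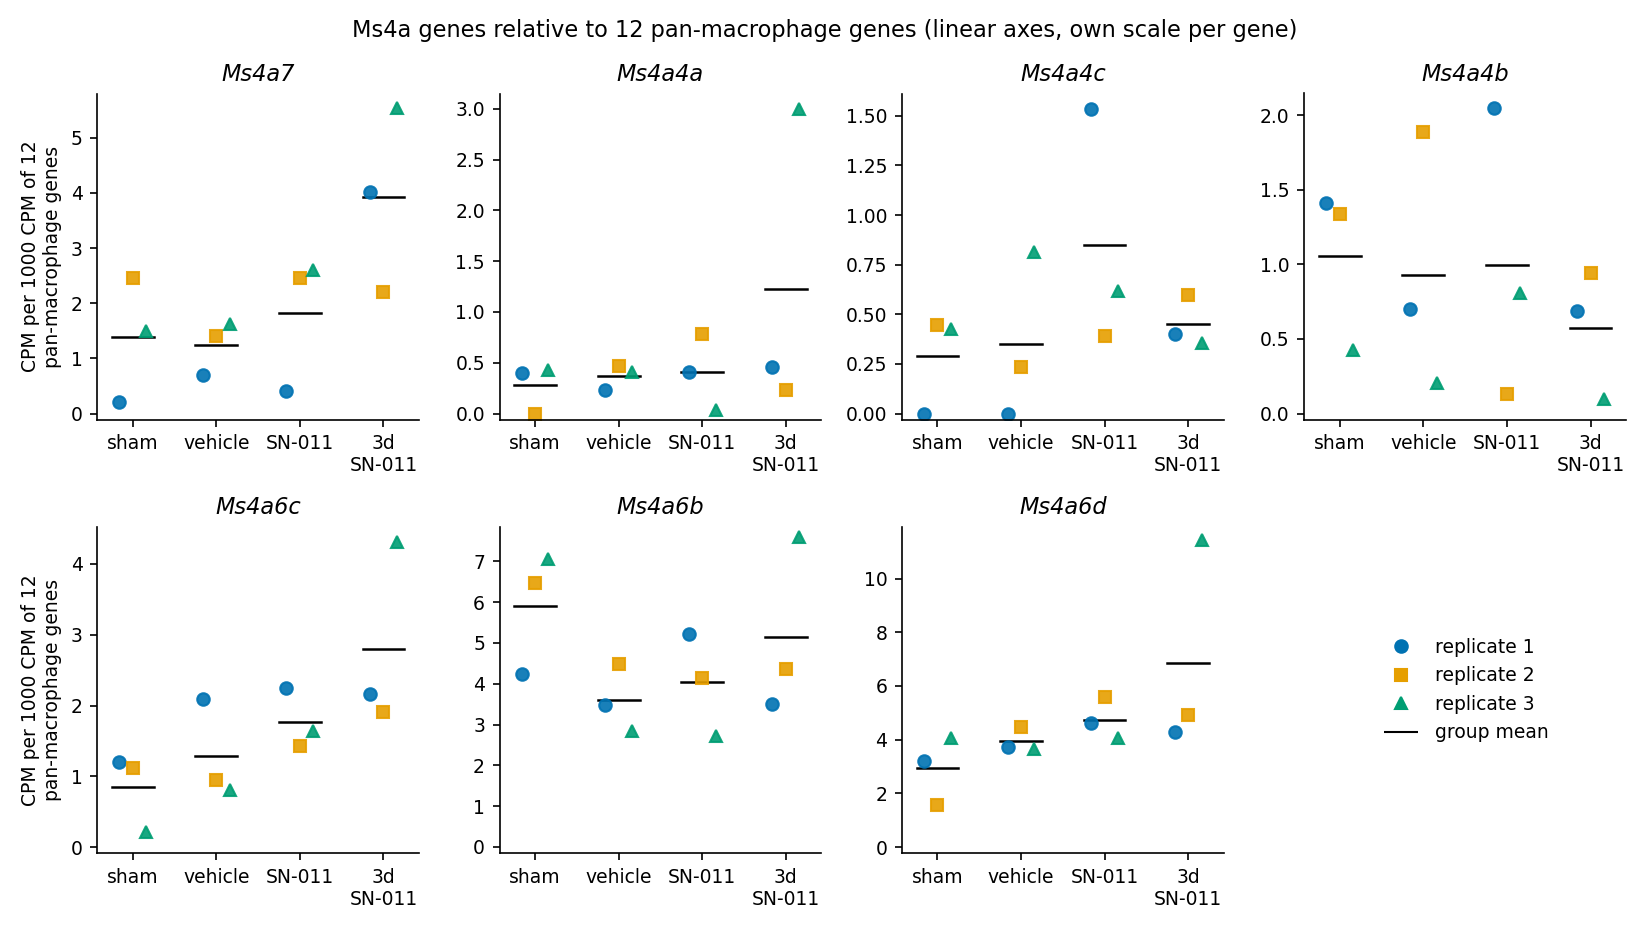
Each Ms4a gene as CPM per 1000 CPM of the 12 pan-macrophage genes (vertical axis, linear, with its own scale per gene) in the 12 libraries, with points by replicate and lines at group means. For Ms4a6d, 3d SN-011 replicates 1 and 2 lie at 4.27 and 4.90, near the vehicle libraries, and replicate 3 lies at 11.4.

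Within the 3d SN-011 group, replicate 3 pulled the Ms4a genes apart. Compared with the mean of replicates 1 and 2 on the log2 CPM scale, it was higher by 3.03 for Ms4a4a, 1.23 for Ms4a6d, 0.99 for Ms4a6c, 0.87 for Ms4a6b and 0.80 for Ms4a7, and its difference was -0.52 for Ms4a4c and -2.83 for Ms4a4b. It was thus the highest library for 5 of the 7 genes and the lowest for the other 2, where 39.6% of all genes were highest and 35.3% lowest in it.

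Cell type markers also split between these libraries. All 7 tested genes of border-associated macrophages were highest in replicate 3 (median difference 1.64), with Stab1, a scavenger receptor, at 551, 173 and 763 CPM in replicates 1 to 3. Stab1 alone made up most of the sum of that list, which was 184 to 816 CPM over the group. All 10 genes of homeostatic microglia were lowest in it (median -1.11), and the list summed to 1642 to 3410 CPM. Of the 8 T cell genes tested, 7 were lowest in it (median -1.48). Cd3g, part of the T cell receptor complex, stood at 2.76, 1.53 and 0.162 CPM there, and the untested Cd3e at 3.33, 1.24 and 0.162 CPM. Genes common to macrophages did not lean to either side, with a median of 0.021. Markers of striatal projection neurons were higher in it by a median of 1.38 and choroid plexus genes had a median of -1.37. The part of any of these cell types in the Ms4a differences between replicates was not tested.

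**Figure D4:**
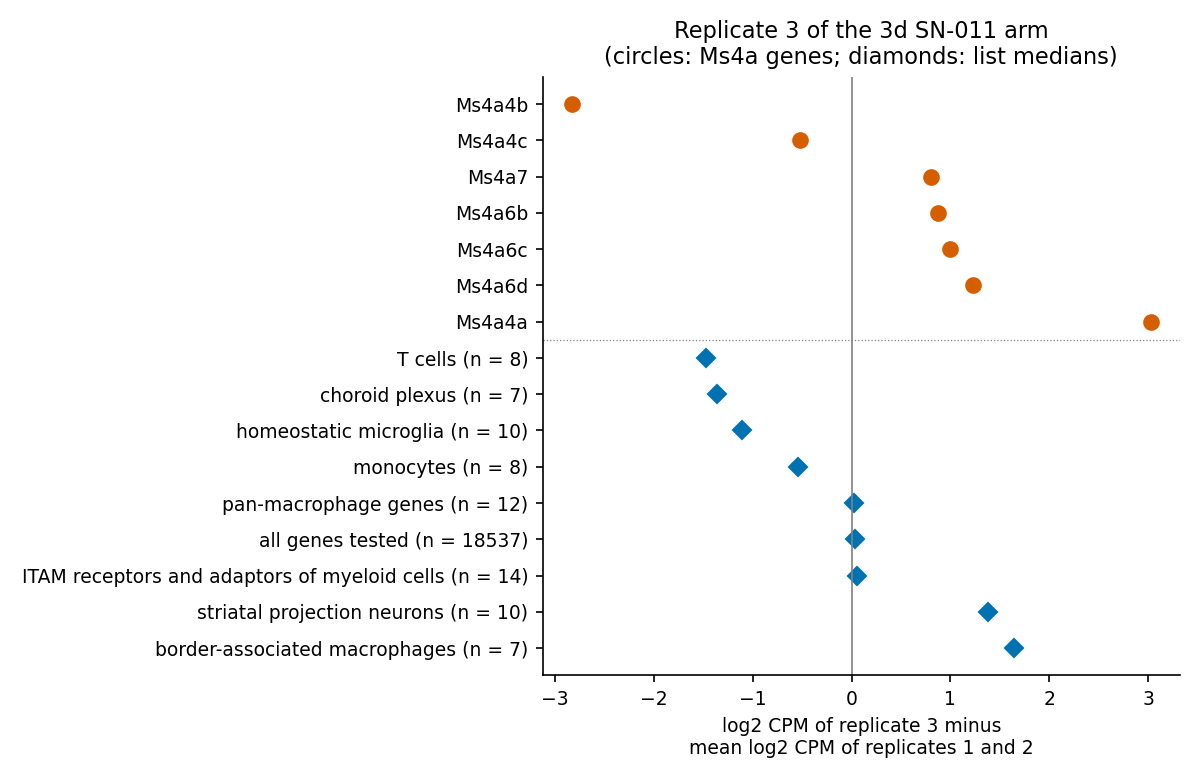
Log2 CPM of 3d SN-011 replicate 3 minus the mean log2 CPM of 3d SN-011 replicates 1 and 2 (horizontal axis), for each Ms4a gene (circles) and as the median of each marker list (diamonds, number of genes tested in brackets). Ms4a4a (3.03) and border-associated macrophage genes (1.64) lie to the right, Ms4a4b (-2.83) and T cell genes (-1.48) to the left, and pan-macrophage genes near 0.

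Across groups the marker lists behaved as follows in 3d SN-011 against vehicle, where edgeR called 28.9% of all genes higher and 28.2% lower. Only genes that passed the filter on low counts were tested. These were 7 of 10 border macrophage, 8 of 12 T cell, 8 of 10 monocyte and 2 of 9 neutrophil genes. Of the dendritic cell list 4 of 7 were tested, of natural killer cells 1 of 7 and of B cells 5 of 8. The filter also drew on the 3d SN-011 libraries, which favoured higher calls for genes with few reads elsewhere. All 10 genes of homeostatic microglia were called higher by edgeR (median log2 fold change 2.79), among them Tmem119 at 2.69 (SE 0.25). Of 7 tested border macrophage genes 5 were called higher and 1 lower, with Stab1 at 4.30 (SE 0.47, adjusted p = 1.89e-05) and the scavenger receptor gene Cd163 at -2.51 (SE 0.44, adjusted p = 3.65e-04). Of 8 tested T cell genes 7 were called higher and 1 lower. Cd28, a costimulatory receptor, had a log2 fold change of 4.19 (SE 0.82) with an adjusted p of 8.18e-04 in edgeR. Cd4 was the 1 called lower, at -2.65 (SE 0.34), with 89.5 ± 11.8 CPM in vehicle and 14.3 ± 7.42 in 3d SN-011 (SD, n = 3 each). It made up most of the summed level of the T cell list in sham and vehicle. That sum therefore follows Cd4 there and is no measure of T cells. The cells that gave the Cd4 reads were not tested. That count of 8 T cell genes dropped to 5 without vehicle replicate 1, without vehicle replicate 2 or without 3d SN-011 replicate 2, to 5 with only these 6 libraries fitted, and to 4 without 3d SN-011 replicate 1. In those fits 48.2% to 56.2% of all genes were called in either direction. All 8 tested monocyte genes were called higher (5 without vehicle replicate 1 or without 3d SN-011 replicate 1), with Fn1, which encodes fibronectin, at 2.48 (SE 0.35) and S100a4 at 5.28 (SE 0.91) on the log2 scale. Of the neutrophil genes 1 of 2 was called higher (Csf3r, the receptor for granulocyte colony-stimulating factor, 3.74, SE 0.56), and of the dendritic cell genes 1 of 4 (the integrin gene Itgax, 3.86, SE 0.72). The natural killer cell gene Nkg7, the only one of its list tested, was called higher, with no read in vehicle and 1.54, 1.78 and 0.269 CPM in 3d SN-011. Of 5 tested B cell genes 2 were called higher and 1 lower, with Cd79b, a part of the B cell receptor, at 4.66 (SE 0.48) and the transcription factor gene Ebf1 at -1.63 (SE 0.17). The rest of that list lay far below Cd79b. Ighm was called at 1.83 (SE 0.66), while Cd79a (0.84, SE 0.87) and Igkc (1.80, SE 0.78) were not called. The cells that gave these reads were not tested. All 10 genes of striatal projection neurons were called lower, among them Bcl11b at -2.73 (SE 0.28) and Rgs9 at -2.90 (SE 0.38), and 6 of 7 choroid plexus genes were, among them Clic6 at -1.87 (SE 0.47) and Kcne2 at -2.99 (SE 0.93). No mast cell gene had enough reads to be tested, with Mcpt4 at 0 in every library.

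Beyond the 7 genes, 17 other family members were listed and 14 are in the count tables. Only 3 had enough reads to be tested, and all 3 were called higher in 3d SN-011 than in vehicle by edgeR, beside 28.9% of all genes. Of the 411 reads of Ms4a14, only 53 lay outside the 3d SN-011 libraries, so the filter on low counts favoured its calls. Ms4a14 therefore cannot be set beside such shares. Ms4a14, a little studied member, stood at 7.57, 1.83 and 9.32 CPM in 3d SN-011 against 0.212 ± 0.132 in vehicle (SD, n = 3), a log2 fold change of 4.83 (SE 0.77, adjusted p = 1.86e-04). As with Ms4a7, replicate 2 was the low library of that group. Tmem176a and Tmem176b are linked MS4A relatives outside the cluster that help to hold dendritic cells in an immature state. Tmem176a stood at 10.2 ± 1.21 CPM in vehicle and 77.2 ± 22.1 in 3d SN-011 (log2 fold change 2.91, SE 0.36, edgeR adjusted p = 3.60e-05), and Tmem176b at 21.2 ± 2.06 and 122 ± 26.9 (2.52, SE 0.32, edgeR adjusted p = 4.04e-05).

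None of these 3 was called in SN-011 against vehicle, where the edgeR adjusted p was 0.529 for Ms4a14, 0.169 for Tmem176a and 0.193 for Tmem176b. DESeq2, limma voom and edgeR without SN-011 replicate 2 each called 2 of them there, beside 2.33%, 4.21% and 2.76% of all genes called higher. Between the SN-011 groups all 3 were called, at 3.19 (edgeR adjusted p = 0.00184), 1.53 (0.00308) and 1.42 (0.00253) on the log2 scale, beside 23.6% of all genes called higher. Here too Ms4a14 cannot be set beside this share. The lineage-defining members were all but missing. Ms4a1 (CD20) had 10 reads, Ms4a2 had 3 and Ms4a3, a marker of granulocyte and monocyte progenitors, had 4 over all 12 libraries, and 5 members had no read. The untested member with the most reads was Ms4a4d, whose 3d SN-011 values of 0.665, 0.0989 and 2.53 CPM put replicate 3 on top, as for Ms4a4a.

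Because family members partner with receptors that signal through ITAMs, 18 such receptors, adaptors and effectors of myeloid cells were listed. All 14 that were tested were called higher in 3d SN-011 than in vehicle by edgeR, beside 28.9% of all genes, with a median log2 fold change of 4.24. The filter that kept these 14 also drew on the 3d SN-011 libraries, which favoured such calls for genes with few reads elsewhere. Fcer1g, the adaptor shared by Fc receptors and dectin-2 family receptors, differed by 4.77 (SE 0.42, adjusted p = 1.22e-05). Syk, the kinase that binds phosphorylated ITAMs, differed by 3.46 (SE 0.33, adjusted p = 1.37e-05). In SN-011 against vehicle edgeR called none of the 14 (median 1.96), beside 0.0108% of all genes called higher. DESeq2 called 11, limma voom 9 and edgeR without SN-011 replicate 2 called 11, beside 2.33%, 4.21% and 2.76% of all genes called higher. In the SN-011 group 13 of the 14 were highest in replicate 3, and in the 3d SN-011 group the list showed no lean to replicate 3 (median 0.059).

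The genes most like each member over the 12 libraries were found by the root mean square difference of centred log2 CPM, among genes that averaged 1 CPM or more. Nearest to Ms4a6b were Lsp1 (0.23), Lyl1 (0.34) and Vav1 (0.35), all genes of blood cells. Nearest to Ms4a6d were Cd68, a lysosomal protein of macrophages (0.32), Cnr2 (0.34) and Cyba (0.37), and nearest to Ms4a6c were Cyba (0.43), Rac2 (0.46) and Csf2rb2 (0.47), of which Cyba and Rac2 encode parts of the phagocyte oxidase. Ms4a7 was nearest to Cd200r4 (0.58), Igf1 (0.65) and C3ar1 (0.66). Ms4a4a was nearest to Adam8 (0.62) and to the fibrillar collagen genes Col1a1 (0.64) and Col1a2 (0.64). Ms4a4b was nearest to the class I gene H2-Q5 (0.34), Gimap4, a gene of lymphocytes (0.40), and Ly6c2 (0.52). Ms4a4c, with a mean under 1 CPM, was left out.

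Among the 7 themselves, the closest pairs on the same measure were Ms4a6c with Ms4a6d (0.61) and Ms4a6b with Ms4a6d (0.64), and Ms4a6b with Ms4a6c stood at 0.80. The farthest were Ms4a4a with Ms4a4b (1.95) and Ms4a7 with Ms4a4b (1.93). Ms4a4b and Ms4a4c, whose promoter windows share the runs in capitals above, stood at 1.10. The closest partner of Ms4a4c was Ms4a6b (0.77), and that of Ms4a4b was Ms4a4c. These distances rest on the same 12 libraries and on low counts for Ms4a4a, Ms4a4b and Ms4a4c, and are given without a test.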

How the data were processed

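RNA from mouse striatum was made into polyA-selected Illumina libraries, per the labels' protocols. The deposited files hold raw read counts per Ensembl gene, 1 file per library. HISAT2, featureCounts and the mm10 build are named in the submitters' processing notes, without versions or settings for strand and multi-mapping reads.

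Counts of all 12 libraries were fitted together in edgeR 4.0.16 (R 4.3.3) with its quasi-likelihood test, group as the only term, TMM scaling and a filterByExpr minimum count of 10, which kept 18537 of 54532 genes. P-values were adjusted over all tested genes by Benjamini-Hochberg, and those under 0.05 were called. CPM are TMM-scaled, and log2 CPM used a prior count of 2. A standard error is the fold change over the square root of F. Alternatives were RLE scaling, no filter, a replicate block, limma 3.58.1 voom with quality weights, DESeq2 1.42.0, fewer libraries and leaving out each library.

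Libraries were grouped by title and treatment label. No library pair agreed within sampling noise, with a chi-square per degree of freedom of 4.79 or more between replicates. As separate animals are not stated, p-values measure the spread between these samples, which may be technical. All members are described. Of the other family genes those tested are named, and of the marker and ITAM lists the 2 called genes with the smallest adjusted p and markers at 0 throughout. For homeostatic microglia 1 of these 2 genes is not reported here. Exceptions chosen after their values were seen are Csf1r, Cd3g, Cd3e, Cd79a, Ighm, Igkc, Ms4a1, Ms4a2, Ms4a3 and Ms4a4d. The members and lists were chosen with earlier results of these data known. Sequences come from RefSeq and transcripts from GENCODE M21.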

Additional observations from a re-analysis of the deposited data

How the results depend on the processing

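Of 525 member fold changes recomputed under alternatives, 495 moved by less than the standard error of the reported value and 30 by more. Their direction held in all fits of the 5 comparisons with an SN-011 group, and in 83 of 91 for vehicle against sham. The number of members called stayed at 0 for vehicle against sham and at 7 for 3d SN-011 against vehicle in all alternatives run. For SN-011 against vehicle it was 0, against 4 with no filter (beside 1.72% of all genes called higher), 2 with limma voom, 3 with DESeq2, and 0 to 2 when 1 library was left out. For SN-011 against sham it was 0, against 4 with no filter (beside 2.19% of all genes called higher), 3 with limma voom, 3 with DESeq2, 1 with the replicate block, and 0 to 3 when 1 library was left out. Counts over all genes moved likewise, from 3 to 601 (1.76%) with no filter, 1179 (6.36%) with limma voom and 432 (2.42%) with DESeq2 for SN-011 against vehicle. For SN-011 against sham they moved from 21 to 775 (2.27%), 1875 (10.1%) and 638 (3.44%), with 28 (0.151%) under the replicate block. Without SN-011 replicate 2 the counts were 521 (2.81%) and 703 (3.79%). Shares are of genes with an adjusted p. Those numbered 34193 with no filter, 17815 (vehicle) and 18534 (sham) in DESeq2, and 18537 in the other fits. For 3d SN-011 against SN-011 members called were 5, against 6 with limma voom and 5 to 6 when 1 library was left out (6 without SN-011 replicate 3 or without 3d SN-011 replicate 3). For 3d SN-011 against sham they were 7, and 6 without sham replicate 3. The cause was not tested. Whether the replicate numbers pair the samples is not stated. Same-numbered libraries deviated with r from -0.29 to 0.14, which with groups of 3 cannot exclude pairing. The replicate block changed no other count of members called. In sham and vehicle, most members had under 20 reads per library, which limits any statement about stroke without drug.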
